A study of Homo sapiens with 2 samples.

Results

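The genes described here are 9 that encode the kinases of RNA polymerase II and their closest partners: CDK7, CDK8, CDK9, CDK12, CDK13, CCNK, CCNT1, SUPT5H and HEXIM1. They were taken by name out of 20037 protein-coding genes placed on GRCh38.p14 by RefSeq. The rule uses no measured value, but the names were chosen with earlier results of these data known, so the counts below are descriptions. For each gene, every called interval inside the gene or within 100 kb of either end was taken from the peak list of each library. The study mapped EWS-FLI, the fusion of EWSR1 with the ETS factor FLI1 that drives Ewing sarcoma, by CUT&Tag, in which an antibody directs a transposase to cut and tag the DNA around its target. The cells were TC32, an established Ewing sarcoma line, and they had been given either siEWS-FLI, aimed at the fusion, or siNEG, which the labels do not spell out and which is the arm compared with it. Each arm has 1 library, so nothing below has a replicate check and no test was made between the arms. Neither the level of the fusion nor the RNA of any gene was measured in these files, and the labels do not name the antibody.

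RNA polymerase II is driven through the start of a gene by kinases that act in turn. CDK7, the kinase of TFIIH, phosphorylates the tail of the polymerase at initiation, and CDK8 is the kinase of the Mediator complex. CDK9 with cyclin T1 (CCNT1) forms P-TEFb, which releases polymerase paused near the promoter by phosphorylating SUPT5H, a subunit of the pausing and elongation factor DSIF, and HEXIM1 holds P-TEFb inactive on a small nuclear RNA. CDK12 and CDK13, both paired with cyclin K (CCNK), act on the polymerase tail during elongation, and CDK12 is known for keeping long DNA repair genes expressed.

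Of the 9 genes, 7 had a called site at their own start in at least 1 library, against 38.1% of all protein-coding genes with a listed start. An own-start site is an interval whose summit lies within 1 kb of a start of that gene in RefSeq. CCNT1, CDK13 and CDK9 stood well above the others with siNEG, at 133, 124 and 93 reads at the summit, and had 19, 16 and 7 reads with siEWS-FLI. Over all genes with a site in both libraries, sites as strong as these were lower with siEWS-FLI too. Their median ratio of siEWS-FLI to siNEG reads was 0.148 for 50 to 99 siNEG reads and 0.123 for 100 to 199. HEXIM1 (19 and 11 reads) and CCNK (14 and 9 reads) had fewer siNEG reads than those 3 genes and more siEWS-FLI reads than CDK9. CDK7 had a site with siNEG only, CDK12 with siEWS-FLI only, and CDK8 and SUPT5H had none in either library.

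The bases upstream of 5 of these starts are printed because they are the sequences under or beside the sites. CCNT1, CDK13-DT and CDK9 carry the strong sites, and CDK12 and HEXIM1 serve as the contrast. CDK13-DT is a non-coding gene that runs away from CDK13, and its start is the one closest to the CDK13 site. Each line gives the 250 bases before the start, 5′ to 3′ on the strand of the gene, from the RefSeq promoter table on GRCh38.p14. Capitals mark CGGAAG, a core shared by many ETS sites, read on either strand. This motif was chosen after the data were seen, and both contrast genes lack it. CDK7, a weak site with the motif, is not in the contrast and is printed further below. The lines follow in order of siNEG pileup with the contrast last.
CCNT1, minus strand, chr12:48716708-48716957: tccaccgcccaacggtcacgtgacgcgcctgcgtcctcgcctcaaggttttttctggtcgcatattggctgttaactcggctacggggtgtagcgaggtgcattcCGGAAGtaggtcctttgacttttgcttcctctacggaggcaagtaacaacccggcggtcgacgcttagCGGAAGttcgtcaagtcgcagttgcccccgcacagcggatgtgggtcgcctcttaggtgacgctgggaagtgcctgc
CDK13-DT, minus strand, chr7:39949420-39949669: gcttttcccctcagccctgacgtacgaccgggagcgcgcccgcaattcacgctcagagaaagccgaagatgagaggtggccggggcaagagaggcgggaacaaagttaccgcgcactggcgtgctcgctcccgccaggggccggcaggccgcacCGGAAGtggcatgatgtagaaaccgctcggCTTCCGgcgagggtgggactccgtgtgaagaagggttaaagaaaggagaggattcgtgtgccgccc
CDK9, plus strand, chr9:127785784-127786033: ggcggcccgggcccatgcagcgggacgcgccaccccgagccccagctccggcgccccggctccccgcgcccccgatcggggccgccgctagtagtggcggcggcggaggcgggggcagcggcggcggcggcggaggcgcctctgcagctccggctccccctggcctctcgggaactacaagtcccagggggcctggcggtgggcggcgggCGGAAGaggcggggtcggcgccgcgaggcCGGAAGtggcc
CDK12, plus strand, chr17:39461236-39461485: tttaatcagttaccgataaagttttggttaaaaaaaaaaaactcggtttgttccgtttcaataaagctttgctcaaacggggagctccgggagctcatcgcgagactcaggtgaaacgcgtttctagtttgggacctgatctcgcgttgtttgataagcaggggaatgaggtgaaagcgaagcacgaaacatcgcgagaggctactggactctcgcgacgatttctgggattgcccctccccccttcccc
HEXIM1, plus strand, chr17:45148225-45148474: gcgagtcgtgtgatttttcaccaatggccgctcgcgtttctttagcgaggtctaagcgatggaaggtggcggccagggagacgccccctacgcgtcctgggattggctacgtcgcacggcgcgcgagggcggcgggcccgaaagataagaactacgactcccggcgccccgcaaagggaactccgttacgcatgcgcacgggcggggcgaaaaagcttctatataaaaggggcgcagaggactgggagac

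Values below are summit pileups, meaning how many reads, each extended as the caller extends them, covered the summit; they are raw and not scaled between libraries. Intervals beside them are exact Poisson 95% intervals, or exact binomial ones for shares and ratios. They cover counting error only, since PCR reads without molecular identifiers are not independent molecules. The caller's library-wide background, which moves with the total of reads, stood at 0.348 (siNEG) and 0.239 (siEWS-FLI) reads per base, and the part of this difference in the lower siEWS-FLI pileups was not tested. At that background, 4 reads were enough for a call in either library, and a position with 3 reads stayed uncalled. The siNEG list held 16284 intervals and the siEWS-FLI list 6370. All 10 loci chosen as reported EWS-FLI1 targets in Ewing sarcoma, among them NR0B1 and CCND1, had a siNEG interval within 100 kb, and 4 of them a siEWS-FLI interval. Over all protein-coding genes 82.9% had a siNEG interval in the same window and 59.3% a siEWS-FLI one. With only 10 loci, these counts are no check of what was bound.

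CCNT1, on the minus strand of chromosome 12, had the highest own-start pileup of the 9 genes in both libraries. The siNEG interval chr12:48716530-48717080 peaked 124 bases upstream of the start, at 133 reads (111 to 158). The siEWS-FLI interval chr12:48716637-48717167 peaked 133 bases upstream, at 19 reads (11.4 to 29.7). The summits lay 9 bases apart, and the ratio of siEWS-FLI to siNEG reads was 0.143 (0.0834 to 0.232). Both summits fall inside the printed stretch of CCNT1, close to its upstream CGGAAG, whose centre lay 18.5 bases from the siNEG summit and 9.5 bases from the siEWS-FLI summit.

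CDK9, the kinase partner of CCNT1, had the widest interval of the 9 genes. It spanned 1128 bases with siNEG, chr9:127785510-127786637, and held 3 deposited summits. The strongest, with 93 reads (75.1 to 114), lay 97 bases inside the gene, one with 63 reads lay 92 bases upstream of the start, and one with 25 reads lay 478 bases inside. With siEWS-FLI the interval was 200 bases, the narrowest width listed, and its single summit of 7 reads (2.81 to 14.4) lay 104 bases inside the gene. The ratio was 0.0753 (0.0294 to 0.161). Besides its capitals in the printed stretch, CDK9 has one more CGGAAG just after the start, 87.5 bases from the siNEG summit, shown here with its flanks.
CDK9, plus strand, chr9:127786029-127786058: tggccgtggaggCGGAAGtggcgcggccgc

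HEXIM1, the inhibitor of P-TEFb, had a modest site in each library. With siNEG the interval chr17:45148054-45148518 peaked 112 bases upstream of the start at 19 reads (11.4 to 29.7). With siEWS-FLI chr17:45148068-45148381 peaked 279 bases upstream at 11 reads (5.49 to 19.7), so the summits lay 167 bases apart. The ratio of 0.579 had an interval from 0.249 to 1.28, which includes equal raw reads, with no scaling for library background. Its promoter window, from 250 bases before to 50 after the start, holds no CGGAAG on either strand.

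CDK13 had a strong site that lay nearer to CDK13-DT than to CDK13 itself. The siNEG interval chr7:39949194-39949860 peaked at 124 reads (103 to 148), 658 bases upstream of the nearest CDK13 start. The siEWS-FLI interval chr7:39949276-39949748 peaked at 16 reads (9.15 to 26.0), 704 bases upstream, and the summits lay 46 bases apart. The siEWS-FLI pileup over the siNEG one was 0.129 (0.0715 to 0.218). Both summits fall in the printed CDK13-DT stretch, where the nearer capitals were centred 85.5 bases from the siNEG summit and 39.5 bases from the siEWS-FLI summit. With the distance to the start held to 500 bases, CDK13 had no own-start site in either library.

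CDK12, the close relative of CDK13, was called with siEWS-FLI only. No siNEG interval covered its start, and the nearest siNEG summit lay 176 kb away, at STARD3, with 10 reads. With siEWS-FLI chr17:39461398-39461636 peaked 22 bases inside the gene at 11 reads (5.49 to 19.7), with a −log10 q of 11.5. At the library-wide background a siNEG pileup of 3 reads would have stayed uncalled there. The siNEG reads at this position are not in the peak list, so no ratio is given. The CDK12 promoter window holds no CGGAAG on either strand. Of 253 siEWS-FLI-only intervals within 1 kb of a protein-coding start, 3 had 11 reads or more, and their median was 5 reads.

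CCNK, the cyclin of both kinases, had a site in both libraries, with counting intervals that overlap. The siNEG interval chr14:99480897-99481346 peaked 274 bases upstream of the start at 14 reads (7.65 to 23.5), and the siEWS-FLI interval chr14:99481035-99481442 peaked 135 bases upstream at 9 reads (4.12 to 17.1). The interval of the ratio of 0.643 (0.245 to 1.59) includes equal raw reads, again with no scaling for library background. Both summits lie inside SETD3, the neighbour that starts within 1 kb and shares this site. The CCNK promoter window holds none of the motif either.

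CDK7, the initiation kinase, had only a weak site and only with siNEG. The interval chr5:69234778-69235090 peaked 61 bases inside the gene from the nearer of its 2 listed starts, at 8 reads (3.45 to 15.8). At the library-wide background a siEWS-FLI pileup of 3 reads would have stayed uncalled. Its CGGAAG copies are printed as short stretches, because part of the region is transcribed from the other start. Their centres lay 104.5 and 62.5 bases from the siNEG summit.
CDK7, plus strand, chr5:69234828-69234857: ctccgcccaccaCGGAAGtgaggcggggat
CDK7, plus strand, chr5:69234870-69234899: gagcccggtggaCGGAAGtgggtgttggag

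CDK8, the Mediator kinase, had no interval in its 151 kb or in the 100 kb on either side in either library. The nearest summit to its start lay 352 kb away with siNEG (9 reads) and 785 kb away with siEWS-FLI (4 reads). Over all protein-coding genes, 2643 of 20037 (13.2%) had no interval in that window in either library. SUPT5H, the DSIF subunit, also had no own-start site, and its nearest siNEG summit lay 9.50 kb upstream at RPS16. The only interval inside SUPT5H away from a start was a siEWS-FLI one of 4 reads (1.09 to 10.2), 30.3 kb into the gene.

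**Figure D1:**
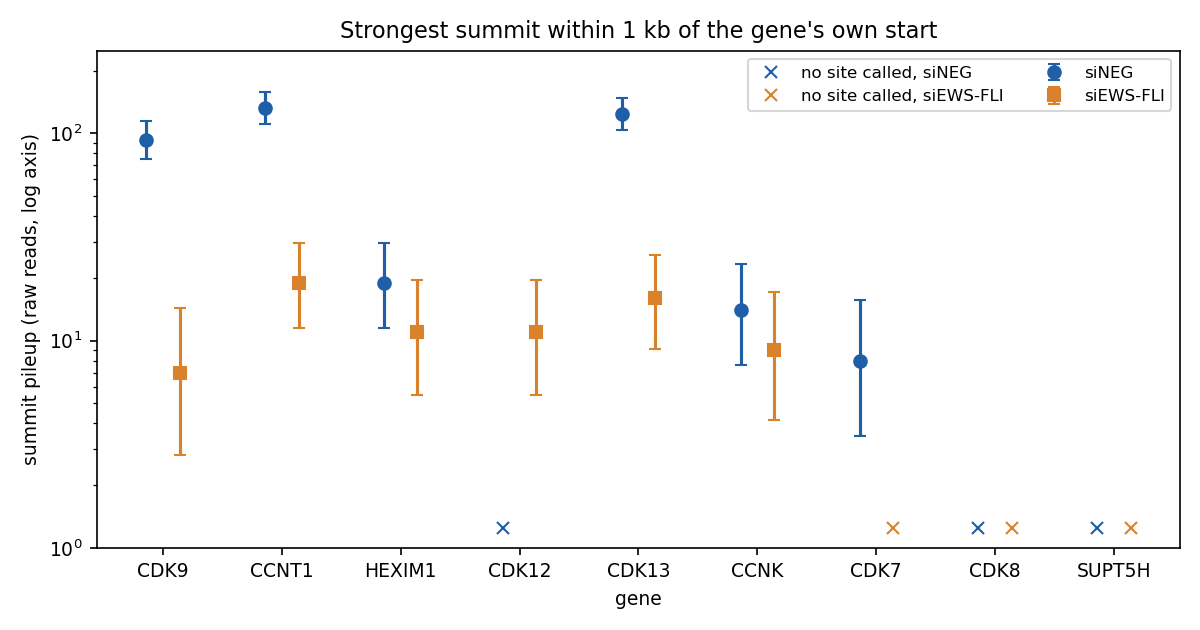
Summit pileup in raw reads (log axis) of the strongest site within 1 kb of each gene's own start, with siNEG (circles) and siEWS-FLI (squares); bars are exact Poisson 95% intervals and crosses at the bottom mark genes with no called site, not a measured value. CCNT1, CDK13 and CDK9 reach 93 to 133 reads with siNEG and 7 to 19 with siEWS-FLI, and CDK12 has a site with siEWS-FLI only.

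Set beside all genes, 6 of the 9 had a siNEG own-start site, against 36.9% of the 15843 protein-coding genes with a listed start. With siEWS-FLI it was also 6 of the 9, against 13.6%. Sites in both libraries were found at 5 of the 9, against 12.4%, and a siNEG site alone at 1, against 24.5%. The remaining pattern, a siEWS-FLI site alone, was found at CDK12, against 1.13% of all genes. Over all genes with a siNEG own-start site 33.6% also had a siEWS-FLI one. The 6 siNEG pileups had a median of 56 reads, against 12 over all 5853 genes with such a site, and the 6 siEWS-FLI pileups had a median of 11, against 8 over 2147 genes. With siNEG, CCNT1 lay above 98.1% of the 5853 genes, CDK13 above 97.7%, CDK9 above 96.1%, HEXIM1 above 65.3%, CCNK above 54.3% and CDK7 above 24.3%. With siEWS-FLI, CCNT1 lay above 94.1% of the 2147 genes, CDK13 above 91.0%, HEXIM1 and CDK12 above 74.6% each, CCNK above 60.7% and CDK9 above 37.0%. CDK9 was therefore among the strongest sites of all genes with siNEG. With siEWS-FLI it was below the median site, at 7 reads against 8, but its counting interval of 2.81 to 14.4 includes that median.

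The ratio of siEWS-FLI to siNEG reads fell with siNEG strength over all genes with an own-start site in both libraries. The 5 members with such sites are set beside it here. Each gene's strongest site in 1 library was paired with its strongest in the other, which at DCAKD lay at another start. Genes that share the same sites, such as CCNK and SETD3, count as 1 pair. Pairs are therefore fewer than genes, 396 against 464 at 10 to 19 siNEG reads. The median ratio of these pairs was 0.471 for 10 to 19 siNEG reads, 0.148 for 50 to 99 and 0.123 for 100 to 199. At all 5 members the paired intervals overlap. A weak site enters this comparison only if at least 4 siEWS-FLI reads were left, which raises the ratio in the lower classes. A siEWS-FLI site was called at 26.1% of genes with 10 to 19 siNEG reads. That share was 84.5% at 50 to 99 and 98.8% at 100 to 199. CCNT1 at 0.143 and CDK13 at 0.129 were near the middle of their class, with a lower ratio at 63.5% and 53.2% of 126 site pairs. CCNK (0.643) and HEXIM1 (0.579) were higher than 82.8% and 73.0% of 396 pairs. Their wide counting intervals, 0.245 to 1.59 and 0.249 to 1.28, both include the class median of 0.471. CDK9 (0.0753) was at the low end of its class, with a lower ratio at 3.82% of 314 pairs. Its counting interval of 0.0294 to 0.161 includes the class median of 0.148. With 93 siNEG reads it was also near the top of that class, where ratios are lower. In the class of 100 to 199 reads the 10th percentile of the ratio was 0.0710, below that of CDK9. The position of the summit was nearly the same in both libraries at CDK9 (7 bases apart) and CCNT1 (9 bases), while it differed by 139 bases at CCNK and 167 at HEXIM1.

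**Figure D2:**
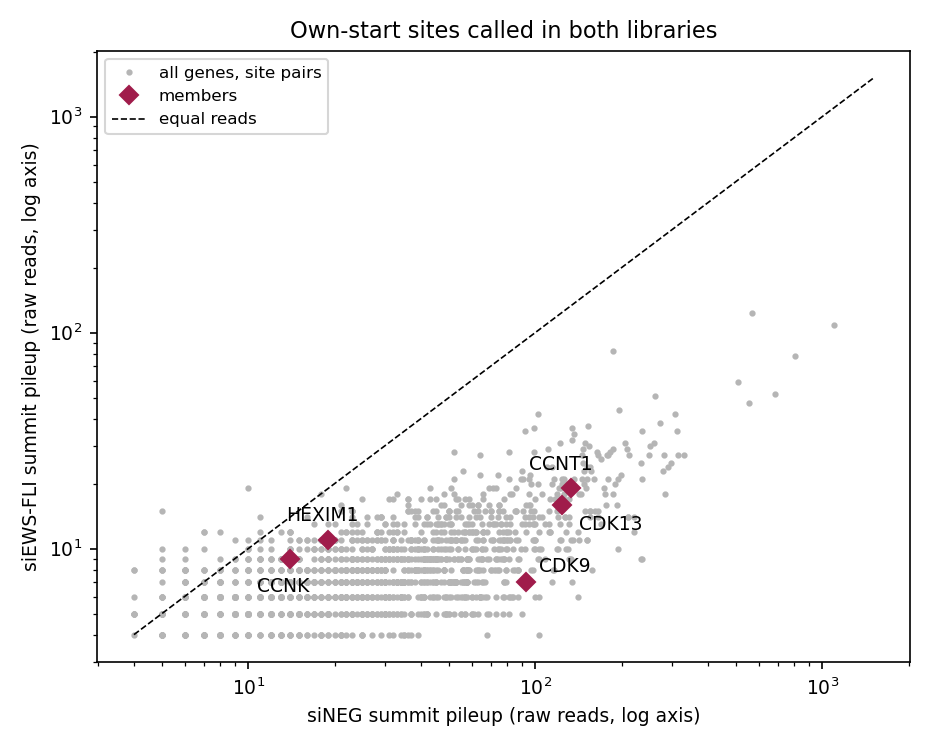
Summit pileups in raw reads of each gene's strongest own-start site in each library, siNEG on the horizontal and siEWS-FLI on the vertical log axis. Grey points are pairs of all protein-coding genes with a site in both libraries. Diamonds are the 5 members with such a pair, and the dashed line marks equal reads. CCNT1 and CDK13 lie within the cloud at 133 and 124 siNEG reads, and CDK9 lies at its lower edge with 93 and 7 reads.

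CGGAAG, on either strand, was present in the promoter window of 4 of the 9 genes: CDK7, CDK9, CDK13 and CCNT1. Over all 22199 windows of protein-coding genes 23.7% held the motif, and by gene 29.7% did. Among genes with the motif 62.6% (61.2 to 64.0) had a siNEG own-start site, and among those without it 26.1% (25.3 to 26.9). The median siNEG pileup of genes with a site was 16 reads with the motif and 10 without. Of the 9 genes, the 3 strong siNEG sites were at genes with the motif in their window, and CDK7 had it with 8 reads. The sites at HEXIM1 and CCNK were at genes without it in their window. That window stops 250 bases upstream. The CCNK siNEG summit (274 bases upstream) and the HEXIM1 siEWS-FLI summit (279 bases upstream) lay outside it, and the bases there are not described here. At CDK13 the motif in its own window lay 502.5 bases from the siNEG summit, farther than the one at CDK13-DT. A run of 3 consecutive GGAA units, on either strand, was in no window of the 9 genes and in 0.0811% of all windows. These are matches of letters in a fixed window, and they say nothing of which factor was bound.

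The windows of the 9 genes held 37 siNEG and 19 siEWS-FLI intervals. The members had a median of 4 siNEG intervals each, against 2 over all 20037 protein-coding genes, and a median of 1 siEWS-FLI interval, as over all genes. In each library 8 of the 9 genes had at least 1 interval, against 82.9% of all genes with siNEG and 59.3% with siEWS-FLI. With siNEG, 6 of the 37 intervals were own-start sites, 20 lay within 1 kb of the start of a protein-coding neighbour, 1 was at a non-coding start and 10 had no listed start within 1 kb. No siNEG summit lay inside one of the 9 genes away from its start. Of the siNEG intervals 13 of 37 (35.1%, 20.2 to 52.5) were overlapped by a siEWS-FLI interval, against 15.6% of all siNEG intervals. Of the siEWS-FLI intervals 13 of 19 (68.4%, 43.4 to 87.4) were overlapped by a siNEG one, against 41.1% of all. The median siNEG pileup was 13 reads in these windows and 8 over all intervals. By location, 5 of 6 own-start, 5 of 20 neighbour-start and 3 of 10 remaining intervals with no start nearby were shared.

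Around SUPT5H, 9 siNEG and 6 siEWS-FLI intervals belonged to its neighbours or to no start, and the siNEG number was higher than for 94.9% of all genes. PLEKHG2 had the strongest, with 116 reads (95.9 to 139) at chr19:39412032-39412850 and 21 (13.0 to 32.1) with siEWS-FLI. It lay 33.1 kb from the SUPT5H start. RPS16, a ribosomal protein gene, had 74 siNEG reads (58.1 to 92.9) and no siEWS-FLI interval. A pair of intervals 4.06 and 3.08 kb from ZFP36, which encodes an mRNA decay factor, had 79 and 46 siNEG reads, and only the second was called with siEWS-FLI, at 9 reads. The start shared by PAF1, a subunit of the PAF1 elongation complex, and MED29, a Mediator subunit, had 36 reads (25.2 to 49.8) and 9 (4.12 to 17.1). A site inside SAMD4B had 17 and 6 reads. TIMM50, EID2B and EID2 had 7, 6 and 6 siNEG reads alone.

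Around HEXIM1 there were 7 siNEG and 5 siEWS-FLI intervals. HEXIM2, the close relative of HEXIM1, had 5 siNEG reads (1.62 to 11.7) at its start and no siEWS-FLI interval. The strongest siNEG sites were at the start of DCAKD and at an intergenic site 24.4 kb from the HEXIM1 start, each with 28 reads (18.6 to 40.5), and neither was called with siEWS-FLI. The start shared by DCAKD and NMT1 had 24 and 8 reads. A site inside PLCD3 had 14 (7.65 to 23.5) and 10 reads (4.80 to 18.4), with counting intervals that overlap. Another site inside PLCD3 had 6 siNEG reads alone.

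Around CDK9 the strongest neighbour was SH2D3C, 14.5 kb from the CDK9 start, with 35 siNEG reads (24.4 to 48.7) and 7 (2.81 to 14.4) with siEWS-FLI. TOR2A had 18 and FPGS, which encodes folylpolyglutamate synthase, 13 siNEG reads at their starts, with no siEWS-FLI interval. A site inside CFAP157 had 9 siNEG reads and one 1.45 kb from ENG had 5. Around CDK7 the strongest site was at the non-coding LOC112267932, inside CENPH, with 14 siNEG reads. CCNB1, the gene of cyclin B1, and KGD4 had 7 siNEG reads each. The clustered starts of AK6, TAF9 and RAD17 had 8 siNEG and 5 siEWS-FLI reads, the sole shared site of the CDK7 window.

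Around the other genes little was called. CCNT1 had 7 siNEG reads at the starts of both KANSL2 and CACNB3. CCNK had 13 siNEG reads at the starts of HHIPL1 and CCDC85C. CDK13 had 6 siNEG reads at MPLKIP and SUGCT, and 13 and 5 at intergenic sites 28.4 and 34.4 kb upstream. None of these neighbours was called with siEWS-FLI.

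**Figure D3:**
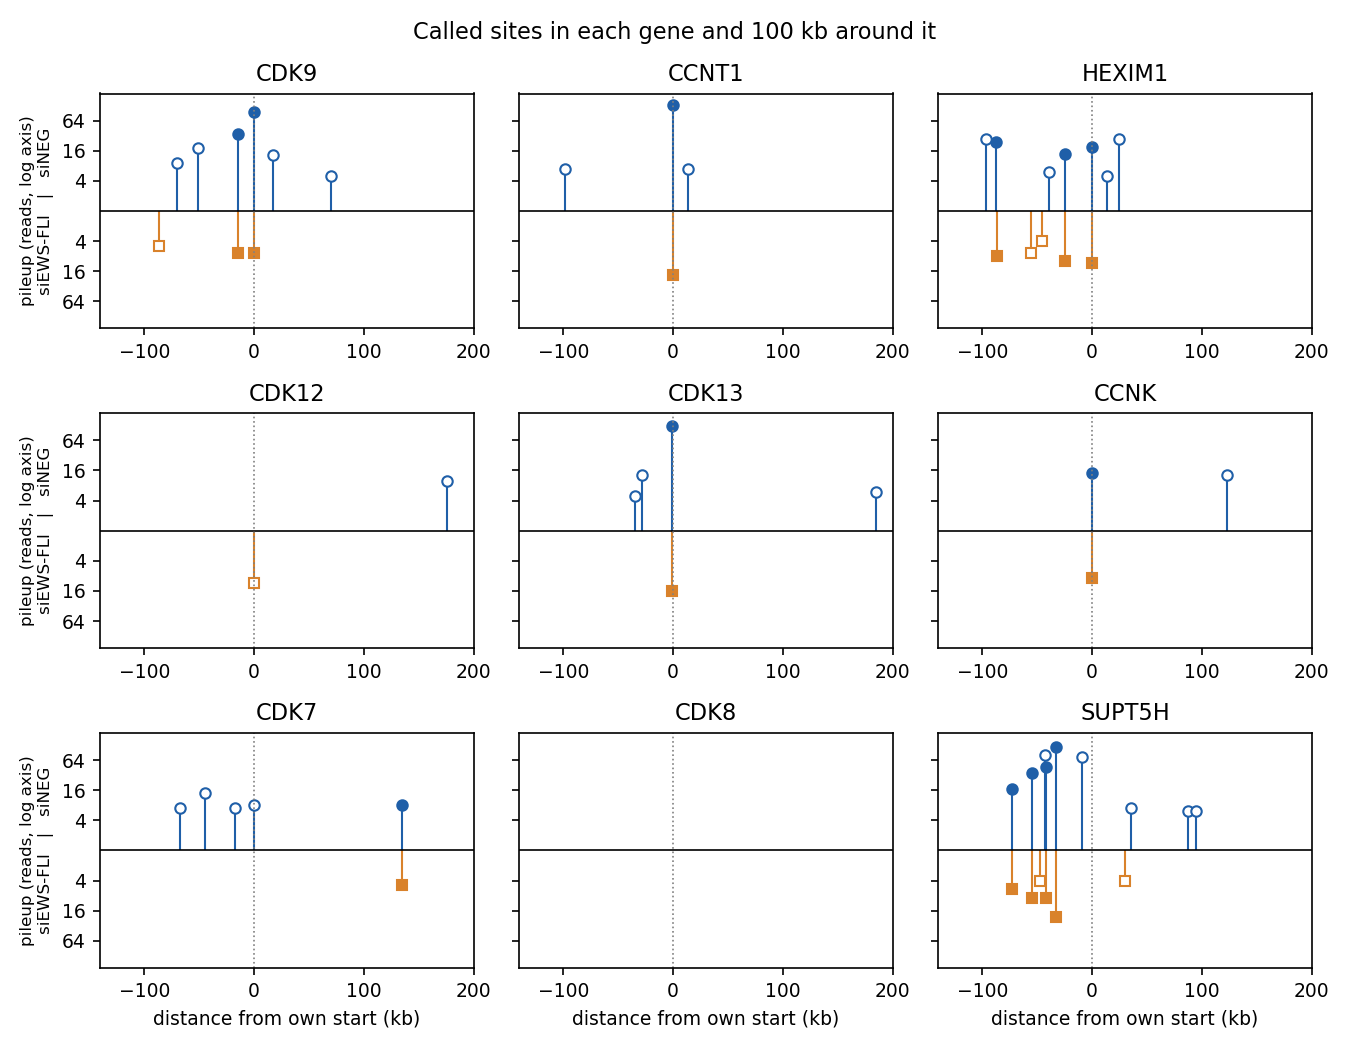
Every called interval in each gene and 100 kb beyond its ends, by distance of its summit from the gene's own start in kb (negative is upstream), with siNEG pileups drawn upward and siEWS-FLI pileups downward on a log axis that starts at 1 read. Filled points are intervals that overlap one of the other library; CDK8 has none, and CDK12 has 1 open siEWS-FLI point at its start.

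Sites called only with siEWS-FLI numbered 6 of 19 in these windows, against 58.9% of all siEWS-FLI intervals. CDK12 held the strongest, with 11 reads. The others were weaker, among them 7 reads (2.81 to 14.4) and 4 reads inside NMT1 in the HEXIM1 window, and 4 reads each inside MED29 and near the end of SUPT5H. The median of the 6 was 4.5 reads, against 4 over all 3753 siEWS-FLI-only intervals. Apart from CDK12, none lay within 1 kb of a listed start.

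The wider machinery of elongation was read from a list of 46 other genes, 40 of which had a listed start. Of these 40, 30 (75%) had a siNEG own-start site, 11 (27.5%) a siEWS-FLI one, and none had a siEWS-FLI site alone, against 36.9%, 13.6% and 1.13% of all genes with a listed start. All 11 siEWS-FLI sites were at genes with a siNEG site, and their ratios ran from 0.0735 to 0.75 with a median of 0.217. NELFE, a subunit of the pausing factor NELF, was the strongest, with 279 siNEG reads (247 to 314) and 23 (14.6 to 34.5) with siEWS-FLI, at a start shared with SKIC2. SUPT4H1, the partner of SUPT5H in DSIF, had 68 siNEG (52.8 to 86.2) and 5 siEWS-FLI reads (1.62 to 11.7), the lowest ratio of the 11. Of the DSIF subunit genes SUPT4H1 therefore had a site at its start and SUPT5H had none.

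The counts by complex are read against the same shares of all genes, and the complexes were grouped after the data were seen. The 3 further genes of the 7SK particle that stores P-TEFb all had a siNEG site. LARP7, which binds the RNA, had 23 and 5 reads, and MEPCE, which caps it, 34 and 6, while HEXIM2 had its site with siNEG only. The LARP7 site also lay within 1 kb of the start of ZGRF1, and the MEPCE site within 1 kb of that of ZCWPW1. Of 4 NELF genes 3 had a siNEG site and 1 a siEWS-FLI site. In the super elongation complex all 6 genes with a listed start had a siNEG site. Apart from ELL these sites had 6 to 15 siNEG reads, against a median of 12 over all genes with a site. Those of AFF1 and EAF1 also lay within 1 kb of the starts of C4orf36 and METTL6. ELL alone of the 6 genes was called with siEWS-FLI, with 61 (46.7 to 78.4) and 10 reads (4.80 to 18.4). In the PAF1 complex 2 of 4 had one, PAF1 as given above and CTR9 with 60 siNEG reads (45.8 to 77.2) alone. CCNT2, the alternative cyclin of CDK9, had 14 and 10 reads, against 133 and 19 at CCNT1.

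Of the CDK7 partners CCNH had 12 siNEG reads, the median over all genes with a site, and MNAT1 none, and in the Mediator kinase module 1 of 3 genes with a listed start had a site, CDK19 with 11 siNEG reads. CDK11A had 63 and 16 reads and CDK11B 39 and 8; these genes are near-identical copies, so reads could be split between them. CTDP1, a phosphatase of the polymerase tail, had 12 and 9 reads, and PCF11, a termination factor, 25 and 8. Of the remaining genes with a siNEG site none was called with siEWS-FLI, and these are drawn in the plot of the other elongation genes.

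**Figure D4:**
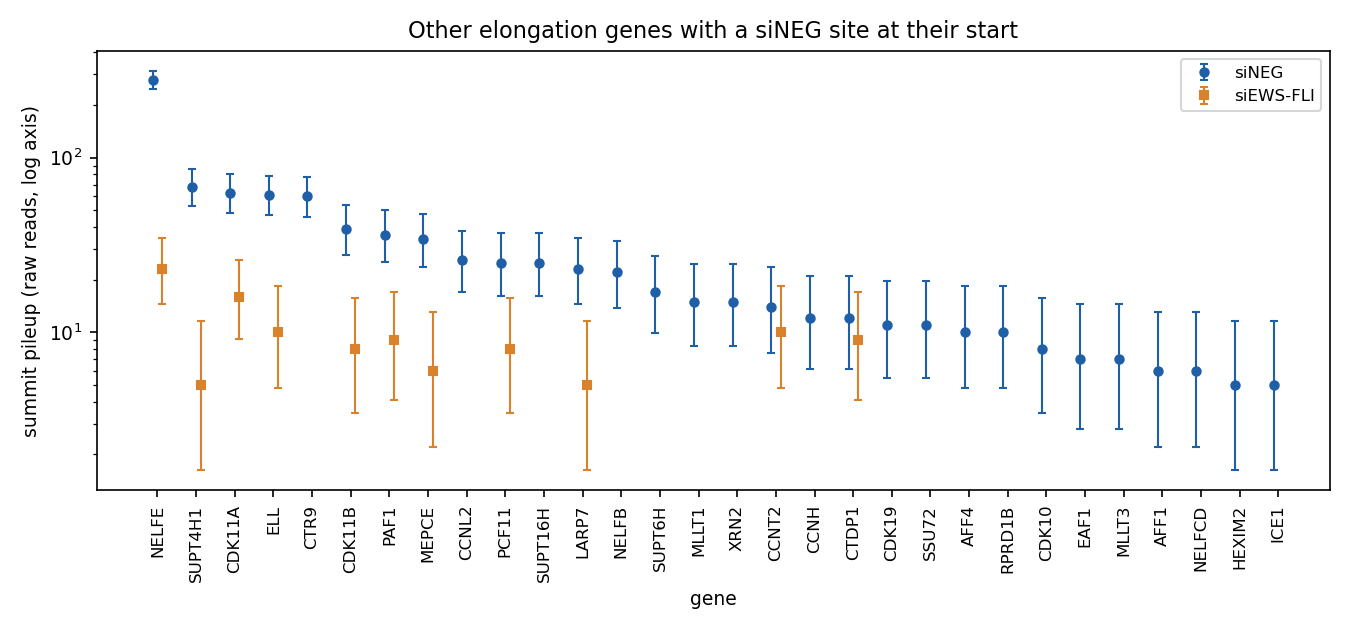
Summit pileup in raw reads (log axis) at the own start of the 30 other elongation genes with a siNEG site, ordered by siNEG pileup; circles are siNEG, squares siEWS-FLI where called, and bars exact Poisson 95% intervals. NELFE stands highest at 279 siNEG reads, and 11 of the 30 genes also have a siEWS-FLI site.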

How the data were processed

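CUT&Tag for EWS-FLI was run on TC32 cells, with 1 library per arm. The submitters' processing notes name the build hg38 and, with no role for any of them, MACS2 2.2.9.1, Bowtie2 2.4.5 and Trim Galore 0.6.6. Whether a control library was used, and how duplicates and fragments were handled, is not given in the sources used here. Peaks were called separately, since each library came with a list of its own. The deposited columns used were the fold enrichment (a linear ratio over local background), the summit, the −log10 q-value and the −log10 p-value; the deposited score was not used. Read totals are not in these lists.

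Lines sharing an interval were merged, keeping the highest −log10 q, on chromosomes 1 to 22, X and Y. The pileup was solved from the deposited −log10 p-value, as a Poisson upper tail, and the deposited fold, with 1 added to both pileup and background. A whole pileup solved 100% of lines in each list within 0.001 in log10 p, a tolerance growing in proportion above 10. The solver was tested on simulated data. Intervals overlapping by at least 1 base were shared. Starts and strands came from the RefSeq promoter table on GRCh38.p14, which has the coordinates of hg38 on the primary chromosomes and covers 79.1% of protein-coding genes; nearest starts are those of covered genes. Python 3.11.15 and scipy 1.17.1 were used.

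The named genes were the 9 members, the gene with the nearest start at each interval, of the pathway list those with a site in both libraries and the 5 strongest, and siEWS-FLI-only sites at a start or with 8 or more reads. 1 site this rule covers is not reported here. Members and lists were chosen with earlier results of these data known. Subgroups of the pathway list, CGGAAG and the GGAA run were chosen after seeing the data. Alternatives covered the window, the distance and definition of the start, the −log10 q threshold, interval width and overlap rule.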

Additional observations from a re-analysis of the deposited data

How the results depend on the processing

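The members with an own-start site stayed within 5 to 7 of 9 in each library under every alternative tried. CDK13 was lost in both libraries at 500 bases, CDK9 with siEWS-FLI at −log10 q of at least 5, and SUPT5H was gained with siEWS-FLI when either gene end counted. The shared share of siNEG intervals ran from 21.6% to 39.1%, within the counting interval of the main value. Interval counts followed the window and the threshold. With siNEG there were 23 in a window of 50 kb and 10 in one of 10 kb. With siEWS-FLI there were 7 at 10 kb, 8 at −log10 q of at least 5 and 11 when wider than 200 bases. The siEWS-FLI-only sites numbered 2 at 10 kb, 3 at −log10 q of at least 2, 2 at −log10 q of at least 5, 2 when wider than 200 bases and 11 under a reciprocal overlap of 50%. Pathway genes with a siEWS-FLI own-start site fell to 7 at −log10 q of at least 5, and those with a siNEG one fell from 30 to 25. At CDK9 the siNEG summit nearest to the start had 63 reads in place of 93. Leaving out a library was not possible with 1 per arm. No paired analysis was possible because each arm has 1 library. Depth limits the calls in both libraries, and an uncalled position is not shown to be empty.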
